A study of Homo sapiens with 6 samples.

Results

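Nascent transcription of 10 redox defence and TXNIP genes was examined in T47D, an established luminal breast cancer cell line that the labels describe as positive for the estrogen receptor and negative for HER2. The set was written as a list of gene names (TXNIP, ARRDC4, NFE2L2, KEAP1, HMOX1, GCLC, GCLM, TXNRD1, SRXN1 and SOD2). A row of the deposited count table belonged to it where its gene name was on the list and at least 1 library held 10 counts or more. All 10 names met this, out of 20333 gene intervals in the table, and all 10 passed the filter on low counts that left 19902 genes to test. Transcription was read by PRO-seq (precision nuclear run-on sequencing): engaged RNA polymerases add labelled nucleotides in permeabilised cells, so the reads in a gene count active polymerases and not mature RNA or protein. The cells were in complete medium and were treated for 5 h in 3 arms. The control arm received DMSO, the solvent. The other arms received 500 nM GDC0068, which inhibits the catalytic activity of the AKT kinases, or 100 nM INY-05-040, which degrades the AKT proteins and is labelled Degrader. The doses had been set so that both agents suppressed signalling below AKT to a similar extent. Each arm had 2 libraries, from 2 independent experiments, and all results come from this 1 cell line.

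Total counts lay between 25371819 and 32192576 per library, and no library stood apart in its scaling factor. The markers of the labelled cell type were present: 10 of 10 luminal breast markers had at least 1 CPM (counts scaled to library size), with a summed level of 5590 to 6000 CPM over the 6 libraries. Of 4 basal markers only ACTA2 had a row, of 4 leukocyte markers only CD68 had one, and none of the 4 fibroblast and 3 endothelial markers had a row. CD68 stood at 77.2 to 83.6 CPM in DMSO, 62.6 to 67.6 CPM under GDC0068 and 55.1 to 64.4 CPM under INY-05-040, and ACTA2 at 3.11 to 4.12, 3.70 to 4.27 and 4.63 to 5.63 CPM. The part of either in the results was not tested.

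The genes belong to linked systems. NFE2L2 encodes NRF2, a transcription factor that raises genes for glutathione synthesis, thioredoxin recycling and haem breakdown when cells meet oxidants, and KEAP1 encodes the adaptor that marks NRF2 protein for destruction until its cysteines are oxidised. Because NRF2 is controlled mainly at the protein level, NFE2L2 transcription alone does not report its activity. TXNIP and ARRDC4 encode alpha-arrestins that lower glucose uptake, TXNIP also binds and inhibits thioredoxin, and both genes are known targets of the glucose-sensing factors MondoA (MLXIP) and ChREBP (MLXIPL), which pair with MLX. AKT bears on these systems by inhibiting FOXO factors, for which SOD2 is a known target, and by inhibiting GSK3, a kinase that promotes NRF2 loss.

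Promoter sequence is shown for the pair of arrestin genes and for the pair of NRF2 target genes whose transcription differed most between arms, so that the elements in front of them can be read beside the values. Each line gives the 250 bases before the RefSeq start on the gene's own strand (GRCh38.p14). The positions are chr1:145996580-145996829 on the minus strand for TXNIP, chr15:97960453-97960702 on the plus strand for ARRDC4, chr12:104286782-104287031 on the plus strand for TXNRD1 and chr20:653201-653450 on the minus strand for SRXN1. Capitals mark the matches to the motifs searched.

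TXNIP: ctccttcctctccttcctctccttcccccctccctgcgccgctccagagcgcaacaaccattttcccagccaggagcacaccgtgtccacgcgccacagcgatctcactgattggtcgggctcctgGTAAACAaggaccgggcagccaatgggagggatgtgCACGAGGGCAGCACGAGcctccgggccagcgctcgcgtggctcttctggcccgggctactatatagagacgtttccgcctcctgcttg
ARRDC4: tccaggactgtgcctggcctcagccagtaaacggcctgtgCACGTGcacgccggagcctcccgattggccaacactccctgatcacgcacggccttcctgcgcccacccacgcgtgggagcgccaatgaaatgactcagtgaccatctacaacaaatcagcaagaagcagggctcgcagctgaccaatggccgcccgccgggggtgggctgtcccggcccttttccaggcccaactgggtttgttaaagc
TXNRD1: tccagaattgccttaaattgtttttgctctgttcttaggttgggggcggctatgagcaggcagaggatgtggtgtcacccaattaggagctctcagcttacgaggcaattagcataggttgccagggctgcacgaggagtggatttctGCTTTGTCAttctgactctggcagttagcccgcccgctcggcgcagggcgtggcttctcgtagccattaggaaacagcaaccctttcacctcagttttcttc
SRXN1: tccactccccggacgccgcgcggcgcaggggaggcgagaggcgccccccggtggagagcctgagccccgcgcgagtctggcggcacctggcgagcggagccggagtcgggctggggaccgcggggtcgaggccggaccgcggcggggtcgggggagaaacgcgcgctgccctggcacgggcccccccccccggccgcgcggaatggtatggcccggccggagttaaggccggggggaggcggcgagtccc

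Motifs were searched on both strands of windows reaching from 250 bases before to 50 bases after a RefSeq start, of which 35116 were read. The antioxidant response element that NRF2 binds, TGACNNNGC, was found in 13.3% of all windows. Among the 9 members with a window it was in 3: KEAP1 (2 matches), GCLM and TXNRD1. The TXNRD1 match, GCTTTGTCA on the opposite strand, lay 102 to 94 bases before the start, and KEAP1 and GCLM shared the letters GCTTAGTCA. SRXN1, NFE2L2, GCLC and SOD2 held no match to any motif searched, which says only that these letters are not in these windows. TXNIP held the FOXO core GTAAACA 124 to 118 bases before its start, a motif in 3.42% of windows. ARRDC4 held the E-box CACGTG, found in 7.26% of windows. The pair of CACGTG boxes with 5 bases between them, a form known to bind MondoA and ChREBP, was in neither gene. TXNIP instead held a pair of imperfect boxes, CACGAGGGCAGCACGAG, 88 to 72 bases before its start, and 2 CACGAG boxes at this spacing occurred in 2 of the 35116 windows (0.0057%). That last motif was added after the TXNIP sequence had been read. The 2 windows include that of TXNIP, so this share is not independent of its sequence. Where a gene has several RefSeq starts, the one nearest to the start in the count table was used. In 8 of the 9 genes the table's start lay inside the window, and that of KEAP1 lay 53 bases downstream of the RefSeq start. HMOX1 is named only.

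Levels per kilobase of interval spanned a wide range. In DMSO the order from high to low was TXNIP (9.05 ± 0.86 CPM per kb; values are mean ± SD of 2 libraries throughout), SRXN1 (8.57 ± 0.89), KEAP1 (3.87 ± 0.21), TXNRD1 (3.70 ± 0.13), NFE2L2 (3.01 ± 0.44), SOD2 (1.62 ± 0.18), GCLC (1.02 ± 0.024), HMOX1 (0.917 ± 0.0040), GCLM (0.498 ± 0.019) and ARRDC4 (0.460 ± 0.0085). The DMSO libraries of TXNIP and SRXN1 overlapped on this scale, as did those of KEAP1 and TXNRD1. No other neighbours in the order overlapped. Over all 6 libraries TXNIP lay at the 91.4th percentile of the tested genes in level per kilobase and ARRDC4, its closest relative in the set, at the 14.7th. Which part of each gene was counted is not stated in the sources used here. TXNIP and SRXN1 are also the shortest intervals (4145 and 6586 bp), and whether reads near the start weigh more in them was not tested. Counts per library ran from 145 for ARRDC4 to 7937 for TXNRD1, so counting error alone was between 1.12% and 8.30%, and it covers counting only.

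**Figure D1:**
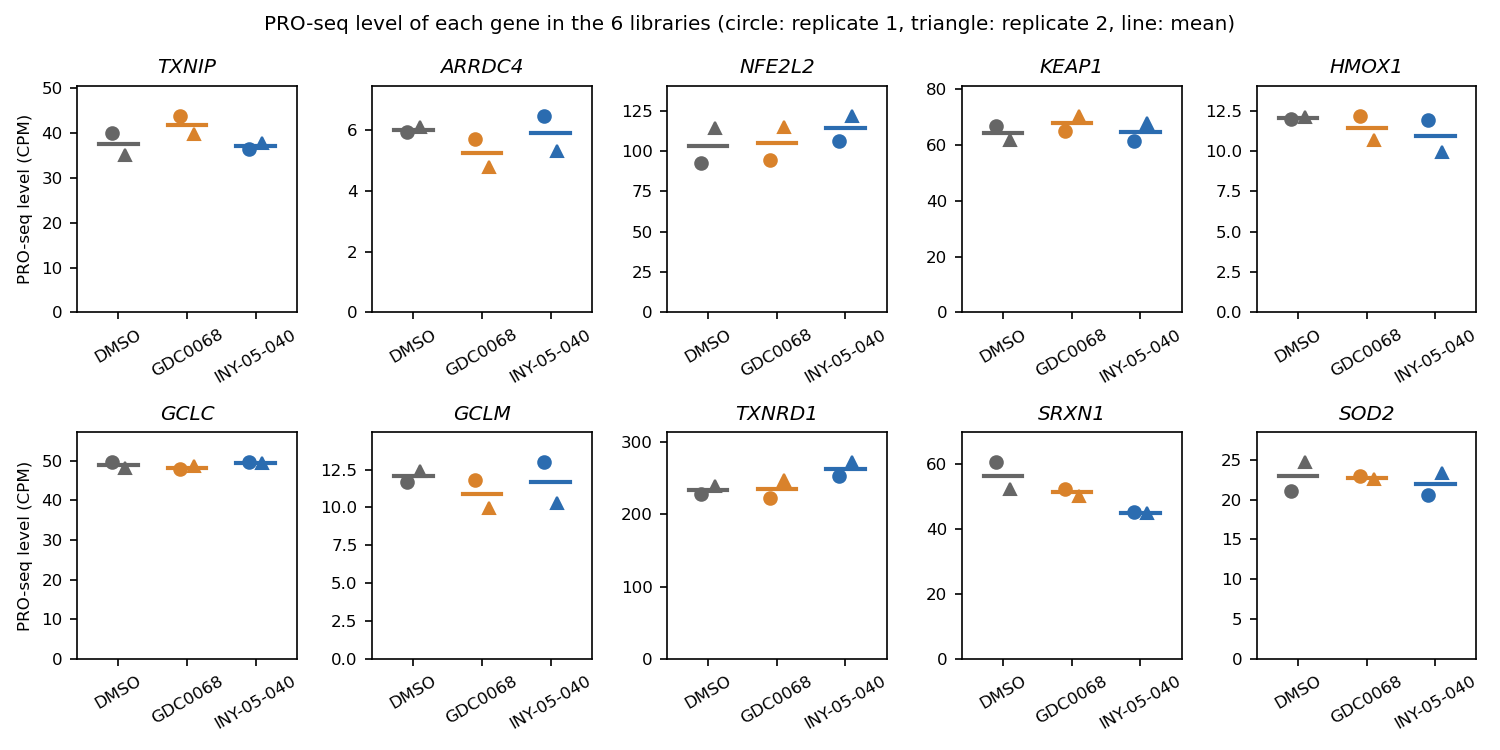
PRO-seq level in CPM (vertical axis, from 0, a scale of its own for each gene) in each library of the DMSO, GDC0068 and INY-05-040 arms; circles are replicate 1, triangles replicate 2 and lines the mean of the 2 libraries. SRXN1 stands at 45.2 and 44.8 CPM under INY-05-040 against 60.6 and 52.3 CPM in DMSO, TXNRD1 is higher in both INY-05-040 libraries than in the other 4, and all arms overlap for NFE2L2, KEAP1, GCLM and SOD2.

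The effect of each agent was asked by setting it against DMSO, and the agents were then set against each other, each in 1 edgeR fit over all genes. A gene is said to have risen or fallen where its Benjamini-Hochberg adjusted p over the 19902 genes was under 0.05. This fit has a term per arm and no pairing. Because libraries with the same replicate number deviated together, the fit was repeated with the replicate number as a block, and its value is given where it changed the call of a gene named here. Under INY-05-040, 1 of the 10 genes was called, SRXN1, which fell. This is 10% of the set, against 15.3% of all genes called in either direction (7.39% higher and 7.88% lower). The SRXN1 call was not kept without DMSO replicate 1 or without INY-05-040 replicate 2, where fewer of all genes were called as well. With the replicate block 3 were called, SRXN1 lower and TXNRD1 and NFE2L2 higher, against 30.7% of all genes (15.1% higher and 15.7% lower). Under GDC0068, 0 of the 10 were called, against 3.58% of all genes, and 0 had an unadjusted p under 0.05 (20.0% of all genes). The count under GDC0068 was also 0 in DESeq2, in limma-voom and with the replicate block, where 17.8% of all genes were called. Between the agents 0 were called in edgeR (0.266% of all genes), DESeq2 and limma-voom. There, 3 of the 10 had an unadjusted p under 0.05 (SRXN1, TXNRD1 and TXNIP; 14.1% of all genes), and with the block 3 were called (SRXN1 lower, TXNRD1 and NFE2L2 higher under INY-05-040), against 10.4% of all genes (5.03% higher and 5.35% lower). The median log2 fold change of the 10 was -0.03 under INY-05-040, -0.01 under GDC0068 and -0.01 between the agents, where the medians of all genes were 0.00, 0.01 and 0.00. The median size of change was 0.06 under INY-05-040, against 0.13 for all genes, 0.07 under GDC0068, against 0.11, and 0.11 between the agents, against 0.09. Both contrasts with DMSO use the same DMSO libraries.

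SRXN1 encodes sulfiredoxin, which reduces over-oxidised peroxiredoxins and restores their activity. Its interval (ENSG00000271303, chromosome 20, 646615 to 653200, minus strand) held 60.6 and 52.3 CPM in DMSO, 52.4 and 50.2 CPM under GDC0068 and 45.2 and 44.8 CPM under INY-05-040. Both INY-05-040 libraries were below the other 4, and the GDC0068 libraries overlapped those of DMSO. SRXN1 fell under INY-05-040 to 0.796 of its DMSO level, which is -0.33 on the log2 scale (SE 0.071, edgeR adjusted p = 0.0100), and the change was -0.42 in replicate 1 and -0.23 in replicate 2. It was not called without DMSO replicate 1 (-0.22, edgeR adjusted p = 0.116) or without INY-05-040 replicate 2 (-0.33, edgeR adjusted p = 0.0694). Under GDC0068 its change was -0.14 (SE 0.071, edgeR adjusted p = 0.295; 95% interval -0.30 to 0.01). Between the agents it was -0.19 (edgeR adjusted p = 0.270), and with the replicate block SRXN1 was lower under INY-05-040 than under GDC0068 (-0.19, edgeR adjusted p = 0.0247). The fall of SRXN1 against DMSO under INY-05-040 was also called with the block (edgeR adjusted p = 2.68e-05).

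TXNRD1 encodes cytosolic thioredoxin reductase, a selenoprotein that returns thioredoxin to its reduced form. Its interval (ENSG00000198431, chromosome 12, 104287032 to 104350277, plus strand) held 228 and 239 CPM in DMSO, 223 and 247 CPM under GDC0068 and 253 and 272 CPM under INY-05-040. The INY-05-040 libraries were the highest of the 6. The change under INY-05-040 was 0.17 on the log2 scale (SE 0.063, 95% interval 0.03 to 0.31), with 0.15 in replicate 1 and 0.19 in replicate 2. It was not called (edgeR adjusted p = 0.0953), but TXNRD1 rose in the fit with the replicate block (edgeR adjusted p = 5.35e-04). Against GDC0068 the difference was 0.16, not called without the block (edgeR adjusted p = 0.282) and called with it (edgeR adjusted p = 0.00352). Under GDC0068 the change was 0.01 (edgeR adjusted p = 0.965; 95% interval -0.13 to 0.15). EID3 lies inside the TXNRD1 interval on the same strand, so some of these reads could belong to it.

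NFE2L2 differed between the experiments by more than between the arms. Its interval (ENSG00000116044, chromosome 2, 177230308 to 177264716, minus strand) held 92.8 CPM in DMSO replicate 1, 94.4 CPM in GDC0068 replicate 1 and 106 CPM in INY-05-040 replicate 1. In replicate 2 the same arms gave 114, 115 and 122 CPM. Replicate 2 was higher in all 3 arms, and within each replicate INY-05-040 was the highest arm. The change under INY-05-040 was 0.14 (SE 0.10), 0.20 in replicate 1 and 0.09 in replicate 2. It was not called by edgeR across arms alone (adjusted p = 0.408) and was called with the block (edgeR adjusted p = 0.00480). Against GDC0068 the corresponding difference was 0.12 (edgeR adjusted p = 0.635; with the block 0.13, adjusted p = 0.0327). GDC0068 itself left a difference of 0.02 from DMSO (95% interval -0.21 to 0.25, edgeR adjusted p = 0.948). MIR3128 lies inside the interval on the same strand.

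KEAP1, the NRF2 adaptor, held 61.6 to 66.7 CPM in DMSO, 65.1 to 70.5 CPM under GDC0068 and 61.4 to 67.7 CPM under INY-05-040 (ENSG00000079999, chromosome 19, 10486125 to 10502718, minus strand). Its libraries overlapped between all arms. The change was 0.08 under GDC0068 (95% interval -0.07 to 0.23, edgeR adjusted p = 0.552) and 0.01 under INY-05-040 (-0.14 to 0.16, edgeR adjusted p = 0.948). AC011461.1 overlaps KEAP1 on the same strand.

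**Figure D2:**
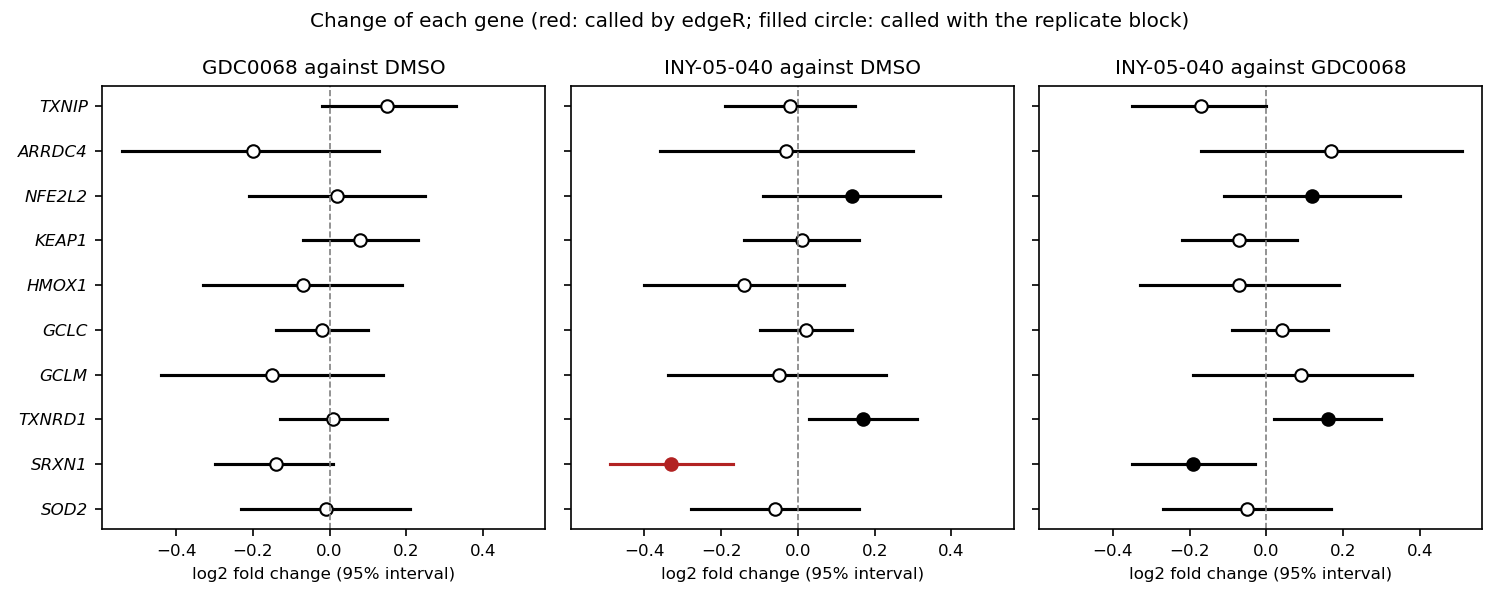
Log2 fold change (horizontal axis) of each of the 10 genes in the 3 comparisons, with bars for the 95% interval of the edgeR fit without the block; red marks a gene called in that fit and a filled circle one called with the replicate block. SRXN1 under INY-05-040 (-0.33) is the only red point, and under GDC0068 every circle is open.

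The glutathione and haem genes of the set gave no call in any of the 3 comparisons, with or without the block. GCLC, the catalytic subunit of glutamate-cysteine ligase, which makes the first and limiting step of glutathione synthesis, held 47.9 to 49.7 CPM over all 6 libraries. Its change was -0.02 under GDC0068 (95% interval -0.14 to 0.10, edgeR adjusted p = 0.891) and 0.02 under INY-05-040 (-0.10 to 0.14, edgeR adjusted p = 0.868), the narrowest intervals of the set. GCLM, the modifier subunit of the same enzyme, held 11.7 and 12.4 CPM in DMSO and 11.8 and 9.99 CPM under GDC0068, and its INY-05-040 libraries lay above and below those of DMSO. Its arms overlapped, with changes of -0.15 under GDC0068 (-0.44 to 0.14, edgeR adjusted p = 0.572) and -0.05 under INY-05-040 (-0.34 to 0.23, edgeR adjusted p = 0.823). HMOX1, the inducible haem oxygenase and a common readout of NRF2 activity, held 12.0 and 12.1 CPM in DMSO, 12.2 and 10.7 CPM under GDC0068 and 11.9 and 9.95 CPM under INY-05-040. Its change was -0.07 under GDC0068 (-0.33 to 0.19, edgeR adjusted p = 0.790) and -0.14 under INY-05-040 (-0.40 to 0.12, edgeR adjusted p = 0.479). For GCLM and HMOX1, replicate 2 was the lower library of both drug arms but not of DMSO. SOD2, the manganese superoxide dismutase of mitochondria, held 20.6 to 24.7 CPM over the 6 libraries. It changed by -0.01 under GDC0068 (-0.23 to 0.21, edgeR adjusted p = 0.974) and -0.06 under INY-05-040 (-0.28 to 0.16, edgeR adjusted p = 0.741), and its arms overlapped.

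**Figure D3:**
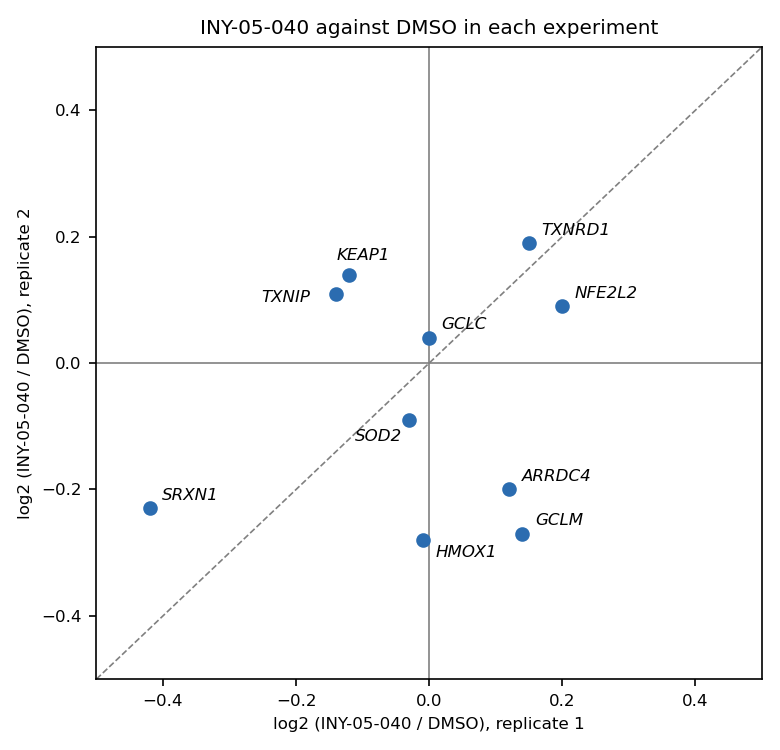
Log2 ratio of INY-05-040 to DMSO for each of the 10 genes in replicate 1 (horizontal axis) and replicate 2 (vertical axis), with the dashed line marking equal values. SRXN1 (-0.42 and -0.23), TXNRD1 (0.15 and 0.19) and NFE2L2 (0.20 and 0.09) had the same sign in both experiments, as did HMOX1 and SOD2, while TXNIP, KEAP1, ARRDC4 and GCLM had opposite signs.

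The 2 alpha-arrestin genes were not called in any comparison. TXNIP (ENSG00000265972, chromosome 1, 145992435 to 145996579, minus strand) held 40.1 and 35.0 CPM in DMSO, 43.9 and 39.7 CPM under GDC0068 and 36.4 and 37.7 CPM under INY-05-040. Both INY-05-040 libraries lay within the range of DMSO and below both GDC0068 libraries. The change was 0.15 under GDC0068 (SE 0.079, 95% interval -0.02 to 0.33, edgeR adjusted p = 0.306) and -0.02 under INY-05-040 (-0.19 to 0.15, edgeR adjusted p = 0.893). Between the agents it was -0.17 (edgeR adjusted p = 0.352; unadjusted p = 0.0485), and with the block TXNIP was called in none of the 3 comparisons. ARRDC4 (ENSG00000140450, chromosome 15, 97960731 to 97973833, plus strand) held 5.94 and 6.10 CPM in DMSO, 5.70 and 4.80 CPM under GDC0068 and 6.48 and 5.32 CPM under INY-05-040. Its GDC0068 libraries were below both DMSO libraries, with a change of -0.20 (SE 0.15, 95% interval -0.54 to 0.13, edgeR adjusted p = 0.504). Under INY-05-040 the change was -0.03 (-0.36 to 0.30, edgeR adjusted p = 0.918). ARRDC4 had 145 to 191 counts per library, and the difference between the changes of the 2 genes was not tested.

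Libraries that did not overlap between arms were found for 1 of the 10 genes under GDC0068 (50.1% of all genes), 3 under INY-05-040 (58.6%) and 4 between the agents (45.0%). The genes most like TXNIP over the 6 libraries, by the root mean square distance of centred log2 CPM among 13896 genes with at least 10 CPM, were ABITRAM (0.0249), AC019294.2 (0.0263), AC005332.4 (0.0270), ALDH5A1 (0.0274) and FGFBP3 (0.0284). None of these 5 was called by edgeR in any comparison, and 2 of them were also among the nearest 5 by Pearson correlation.

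The wider pathway was read from 6 lists of 113 genes written from general knowledge, of which 99 had a row and were tested. The lists were chosen with earlier results of these data known, so their shares describe the lists and are not independent support. PRDX3, PRDX5, GPX1 and GPX4 each stand in more than 1 list. Under INY-05-040, 17 of the 99 were called (17.2%, against 15.3% of all genes), 7 higher and 10 lower, and 36 with the block (14 higher, 22 lower; 36.4%, against 30.7% of all genes). Their median log2 fold change was -0.06, against 0.00 for all genes. Under GDC0068 3 were called (3.03%, against 3.58%), 1 higher and 2 lower, and 21 with the block (8 higher, 13 lower; 21.2%, against 17.8%), with a median of -0.02 against 0.01. Between the agents 0 were called by edgeR (0.266% of all genes), and 11 with the block (11.1%, against 10.4%). There, 16 had an unadjusted p under 0.05 (16.2%, against 14.1% of all genes). Wherever 1 of these lists had 0 calls in edgeR, DESeq2 and limma-voom also called 0. The INY-05-040 count was lower without any 1 of the DMSO or INY-05-040 libraries, and the number of all genes called was lower there too. Fits that leave out a library have no block. With all libraries and the block, the 17 list genes stayed called under INY-05-040. No call of a list gene under GDC0068 was kept without any 1 of the DMSO or GDC0068 libraries. In those fits fewer of all genes were called as well.

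The arrestin and MondoA list had 17 tested genes, of which 7 (41.2%, against 15.3% of all genes) were called under INY-05-040, 3 higher and 4 lower, with a median of -0.06. Because the list was chosen with earlier results of these data known, the choice may have raised this share. With the block 10 were called (58.8%, against 30.7%), 4 higher and 6 lower. Under GDC0068 1 was called (5.88%, against 3.58%), and 6 with the block (35.3%, against 17.8%). ARRDC3, another alpha-arrestin, which takes part in receptor trafficking, held 114 and 103 CPM in DMSO, 124 and 119 CPM under GDC0068 and 140 and 144 CPM under INY-05-040. All 3 arms were separate. ARRDC3 rose by 0.38 under INY-05-040 (SE 0.056, edgeR adjusted p = 0.00136), and its change of 0.16 under GDC0068 was called with the block only (edgeR adjusted p = 0.147; 0.00599 with the block). Its difference of 0.23 between the agents was also called with the block only (edgeR adjusted p = 0.113; 4.03e-04 with the block). ARRDC3-AS1 overlaps it on the opposite strand. MXD4, a MAX partner that represses transcription, rose under both agents, by 0.31 under INY-05-040 (edgeR adjusted p = 0.00384) and by 0.24 under GDC0068 (edgeR adjusted p = 0.0406). The GDC0068 call was lost in DESeq2 (adjusted p = 0.0552), in the fit to the 4 libraries compared (edgeR adjusted p = 0.0628) and without each of the 6 libraries in turn. MLXIPL, which encodes ChREBP, held 127 CPM in both DMSO libraries, 116 and 115 CPM under GDC0068 and 107 and 105 CPM under INY-05-040. It fell under INY-05-040 by 0.25 on the log2 scale (SE 0.046, edgeR adjusted p = 0.00426). With the block MLXIPL was also called under GDC0068 (-0.13, edgeR adjusted p = 0.0106) and between the agents (-0.12, edgeR adjusted p = 0.0280).

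The other 4 genes called in this list fall outside the naming rule and were chosen after their values were seen. MLXIP, which encodes MondoA, changed by -0.21 (edgeR adjusted p = 0.0128), and MLX, the partner of both factors, by -0.22 (edgeR adjusted p = 0.0172). SLC2A1, the glucose transporter GLUT1 whose surface level TXNIP lowers, changed by -0.23 (edgeR adjusted p = 0.0185). NEDD4L, a ubiquitin ligase, rose by 0.35 (edgeR adjusted p = 0.00452). MLXIP, MLX and SLC2A1 fell in this fit, but none of the 3 was called without DMSO replicate 1 (adjusted p of 0.105, 0.113 and 0.108), without INY-05-040 replicate 1 (0.0880, 0.116 and 0.123) or without INY-05-040 replicate 2 (0.0622, 0.0602 and 0.0596). MLX and SLC2A1 were also not called without DMSO replicate 2 (0.0608 and 0.0658), and NEDD4L was not called without DMSO replicate 1 (0.0682) or INY-05-040 replicate 2 (0.0657). With all libraries and the block these 4 genes stayed called under INY-05-040. The edgeR adjusted p was 8.05e-05 for MLXIP, 5.73e-04 for MLX, 1.25e-04 for SLC2A1 and 9.63e-09 for NEDD4L. With the block MLX, MLXIP and NEDD4L were called under GDC0068 as well (-0.20, -0.11 and 0.15; edgeR adjusted p of 0.00377, 0.0437 and 0.00232). Between the agents the block called NEDD4L (0.20, edgeR adjusted p = 4.94e-04) and SLC2A1 (-0.17, edgeR adjusted p = 0.0123). The calls of ARRDC3, MXD4 and MLXIPL under INY-05-040 were kept without each of the 6 libraries in turn.

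**Figure D4:**
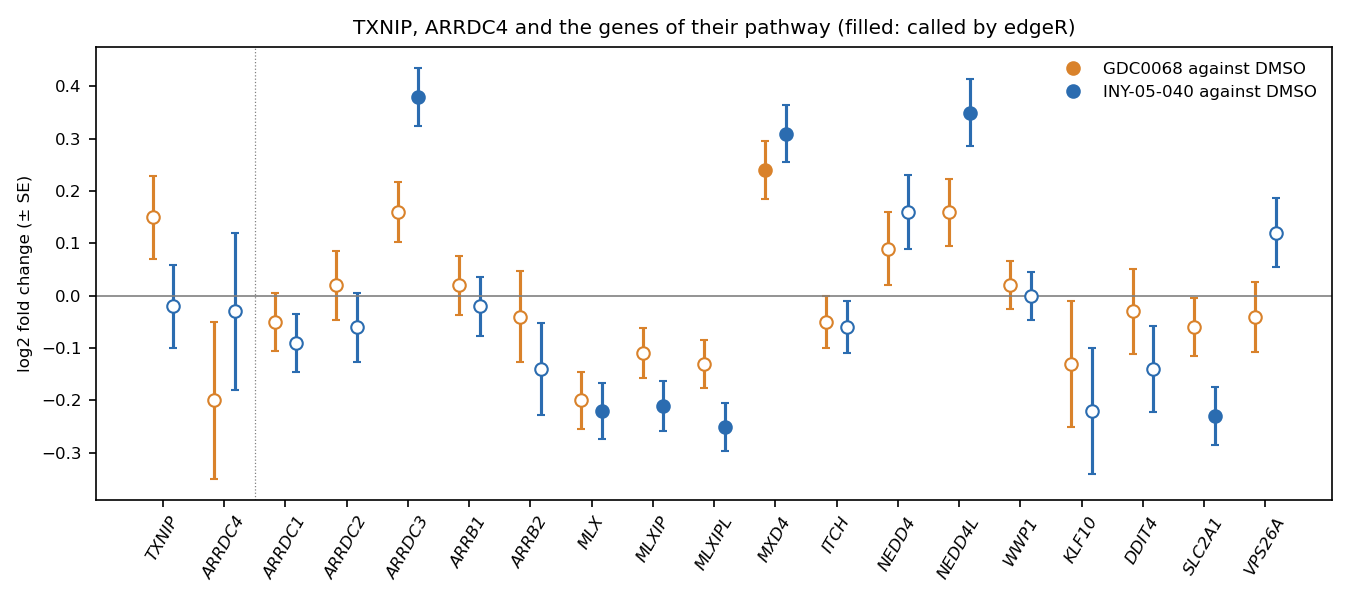
Log2 fold change against DMSO with its SE (vertical axis) for TXNIP, ARRDC4 and the 17 tested genes of the arrestin and MondoA list under GDC0068 (orange) and INY-05-040 (blue); filled points were called by edgeR. ARRDC3, MXD4 and NEDD4L are filled above 0 and MLX, MLXIP, MLXIPL and SLC2A1 below 0 under INY-05-040, while both points of TXNIP and of ARRDC4 are open.

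Among 14 NRF2 regulators and partners, 2 (14.3%, against 15.3% of all genes) were called under INY-05-040 and 0 under GDC0068 (3.58% of all genes). Under GDC0068 3 had an unadjusted p under 0.05 (21.4%, against 20% of all genes). With the block 7 (50%, against 30.7%) were called under INY-05-040 and 3 (21.4%, against 17.8%) under GDC0068. The list's median was 0.00 under INY-05-040 and -0.01 under GDC0068. MAFF, a small MAF protein that pairs with NRF2, held 13.7 CPM in both DMSO libraries, 16.2 and 15.3 CPM under GDC0068 and 18.4 and 19.0 CPM under INY-05-040, with all arms separate. It rose by 0.45 under INY-05-040 (SE 0.091, edgeR adjusted p = 0.00760). That call was lost without DMSO replicate 1 (0.44, edgeR adjusted p = 0.0631) and without INY-05-040 replicate 2 (0.42, edgeR adjusted p = 0.0699). PLA2G6 overlaps MAFF on the opposite strand. The small MAF genes MAFG and MAFK, given with their values known, differed in direction under INY-05-040. MAFG changed by 0.24 (edgeR adjusted p = 0.0693, and 0.0114 with the block). MAFK, with a DMSO mean of 161 CPM, changed by -0.12 (edgeR adjusted p = 0.277, and 0.012 with the block). DPP3, a peptidase that binds KEAP1, fell under INY-05-040 (-0.24, edgeR adjusted p = 0.0151), a call lost without any 1 of the DMSO or INY-05-040 libraries (edgeR adjusted p from 0.0599 to 0.0988). With the block DPP3 was called under GDC0068 too (-0.17, edgeR adjusted p = 0.0198).

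Of 18 tested NRF2 target enzymes and carriers, 4 (22.2%, against 15.3% of all genes) were called under INY-05-040, 1 higher and 3 lower, and 2 under GDC0068 (11.1%, against 3.58%), both lower. With the block the counts were 10 (55.6%, against 30.7%) and 5 (27.8%, against 17.8%). The list's median was -0.12 under INY-05-040 and -0.08 under GDC0068. Called lower under both agents without the block were TKT and PGD, enzymes of the pentose phosphate pathway, which supplies NADPH to glutathione and thioredoxin reductases. TKT held 105 and 102 CPM in DMSO, 83.5 and 82.2 CPM under GDC0068 and 88.3 and 78.3 CPM under INY-05-040, so that all 4 drug libraries were below both DMSO libraries. It fell by 0.32 on the log2 scale under GDC0068 (edgeR adjusted p = 0.0177) and by 0.31 under INY-05-040 (edgeR adjusted p = 0.00555). The INY-05-040 call of TKT was lost without INY-05-040 replicate 2 (-0.24, edgeR adjusted p = 0.0656). PGD fell by 0.27 and 0.24 (edgeR adjusted p of 0.0361 and 0.0242), and under INY-05-040 it was not called in DESeq2 (adjusted p = 0.0539) or without any 1 of the DMSO or INY-05-040 libraries (edgeR adjusted p from 0.0529 to 0.143). Under GDC0068 both calls were lost without any 1 of the DMSO or GDC0068 libraries. With the block BLVRB and PIR were called lower under both agents as well (PIR, chosen after its values were seen: -0.29 under GDC0068, adjusted p = 0.00264, and -0.20 under INY-05-040, adjusted p = 0.0216, edgeR). BLVRB, biliverdin reductase B, fell under INY-05-040 (-0.29, edgeR adjusted p = 0.00682), a call not kept without DMSO replicate 1 (-0.28) or INY-05-040 replicate 2 (-0.26). Its change of -0.19 under GDC0068 was called with the block only (edgeR adjusted p = 0.0118). The gene called higher, chosen after its value was seen, was FTL, the ferritin light chain (0.45, edgeR adjusted p = 0.0277), which was not called without any 1 of the DMSO or INY-05-040 libraries (edgeR adjusted p from 0.0787 to 0.158). FTL was also called under GDC0068 with the block only (0.34, edgeR adjusted p = 0.0351). FTH1, the ferritin heavy chain, given with its value known, went the other way under INY-05-040. Its change was -0.18 (edgeR adjusted p = 0.067, and 0.00795 with the block). The DMSO mean was 62.1 CPM for FTH1 and 8.69 CPM for FTL. NQO1, the quinone reductase often used to report NRF2 activity, is given for its role, outside the naming rule and with its value known. It changed by 0.15 under INY-05-040 (edgeR adjusted p = 0.136; 0.0145 with the block) and by 0.16 between the agents (edgeR adjusted p = 0.282; 0.0247 with the block).

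Among 23 tested glutathione genes, 4 (17.4%, against 15.3% of all genes) were called under INY-05-040, 2 higher and 2 lower, and 0 under GDC0068 (3.58% of all genes). Under GDC0068 2 had an unadjusted p under 0.05 (8.7%, against 20% of all genes). With the block 6 (26.1%, against 30.7%) were called under INY-05-040 and 3 (13%, against 17.8%) under GDC0068. The list's median was -0.07 under INY-05-040 and 0.01 under GDC0068. CHAC1, which breaks glutathione down, held 5.66 and 7.09 CPM in DMSO, 6.57 and 4.77 CPM under GDC0068 and 3.69 and 3.84 CPM under INY-05-040. Both INY-05-040 libraries were below the other 4. CHAC1 fell by 0.75 under INY-05-040 (SE 0.19, edgeR adjusted p = 0.0192), a call lost without DMSO replicate 2 (-0.59, edgeR adjusted p = 0.113), INY-05-040 replicate 1 (edgeR adjusted p = 0.0813) or INY-05-040 replicate 2 (edgeR adjusted p = 0.0860). GSTZ1, a glutathione transferase of tyrosine breakdown, rose from 110 ± 4.2 to 132 ± 1.1 CPM (0.27, edgeR adjusted p = 0.00563), and this call was kept without each library in turn. HAGH, a glyoxalase, rose by 0.25 (edgeR adjusted p = 0.0105), and was not called without DMSO replicate 1, DMSO replicate 2 or INY-05-040 replicate 1 (edgeR adjusted p of 0.0564, 0.0657 and 0.0849). The other gene called, chosen after its value was seen, was GGCT, which cleaves gamma-glutamyl compounds. It fell (-0.29, edgeR adjusted p = 0.0284), but not past the threshold without any 1 of the DMSO or INY-05-040 libraries (edgeR adjusted p from 0.0729 to 0.183). With the block HAGH and GGCT were called under GDC0068 too (0.17 and -0.29; edgeR adjusted p of 0.0105 and 0.00710). Between the agents the block called GSTZ1 (0.17, edgeR adjusted p = 0.00571) and CHAC1 (-0.58, edgeR adjusted p = 0.0287). Of 20 thioredoxin and peroxiredoxin genes and 11 superoxide and peroxide removal genes tested, 0 were called by edgeR under either agent. PRDX3 and PRDX5 are in both lists. Among all genes 15.3% were called under INY-05-040 and 3.58% under GDC0068. Under INY-05-040 2 (10%) and 3 (27.3%) of the listed genes had an unadjusted p under 0.05, against 29.9% of all genes. PRDX5 is in both numbers. With the block 1 (5%) and 2 (18.2%) were called, against 30.7%. Under GDC0068 0 and 3 (27.3%) had an unadjusted p under 0.05, against 20%. With the block 1 (5%) and 3 (27.3%) were called there, against 17.8%. The medians of these lists under INY-05-040 were -0.08 and -0.02. Under INY-05-040 7 of the 20 and 5 of the 11 genes had a log2 fold change above 0. TXN, thioredoxin itself, changed by 0.07 (edgeR adjusted p = 0.444). CAT, catalase, changed by 0.15 (edgeR adjusted p = 0.0831, and 0.0181 with the block). Both are given for their roles with their values known. The other genes of these lists called with the block under INY-05-040 were lower. They were PRDX4 (-0.20, edgeR adjusted p = 0.032) and PARK7 (-0.17, edgeR adjusted p = 0.0149), named after their values were seen.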

How the data were processed

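PRO-seq libraries of T47D cells (3 arms of 2) were analysed from a table deposited by the authors, which holds an unnormalised count of reads for each gene interval and library. Per the submitters' processing notes, cutadapt 1.14, Bowtie 1.2.2, SAMtools 1.3.1, HISAT2 2.2.1 and limma were used, with the builds dm3, hg38 and GRCh38, whose roles are not given. Use of a spike-in, strand, duplicate removal and the part of a gene counted are not given in the sources used here. Changes are therefore relative to the bulk of genes, and reads of overlapping genes cannot be told apart. Starts in the table count from 0, since its start-site column fits that reading in all 20333 intervals, and are written from 1.

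Groups and replicate numbers came from the sample titles. Counts were fitted in R 4.3.3 with edgeR 4.0.16 (filterByExpr with a minimum count of 10 and total of 15, which removed 431 genes; TMM scaling; glmQLFit and glmQLFTest on all 6 libraries with a term per arm, 3 residual degrees of freedom). Calls used a Benjamini-Hochberg adjusted p under 0.05, taken over all tested genes. SE is the log2 fold change over the square root of F, intervals are 95%, and CPM uses TMM-scaled totals. The script was tested on simulated data with planted changes of 1.5-fold and 2-fold and no replicate effect. Smaller changes, such as those of the members, were not simulated. Libraries of 2 independent experiments carried the same numbers, and their deviations correlated between arms across genes (0.177, 0.220 and 0.204), so the replicate number pairs the libraries. As planned, the main fit has no block, and the fit with it stands beside results whose call it changed. Replicates of an arm differed by more than counting noise (chi-square per degree of freedom 5.01 to 6.95). Whether libraries came from separate cultures is stated only as independent experiments. No permutation test with 2 libraries per arm can pass 0.05.

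Alternatives were the replicate block, the 4 libraries compared, other scalings and filters, robust estimation, DESeq2 1.42.0, limma-voom (limma 3.58.1) and each library left out. The members and lists were chosen with earlier results of these data known. Named were all 10 members; in each list up to 3 genes with the smallest adjusted p under INY-05-040 and up to 2 under GDC0068 among those called, with any called between the agents; and the 5 genes nearest to TXNIP. Promoter sequences are RefSeq's (GRCh38.p14).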

Additional observations from a re-analysis of the deposited data

How the results depend on the processing

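All counts are at an edgeR adjusted p under 0.05 unless a tool is named. Over 16 alternatives per result, the 30 log2 fold changes of the members kept their side of the threshold in 473 of 480 cases; 5 became called with the replicate block and 2 calls were lost on leaving out 1 library. The sign differed from the main value in 21 cases, spread over 15 of the 30 fold changes, and in 0 of them was the value called in either fit. With the replicate block the genes called were 3540 under GDC0068, 6114 under INY-05-040 and 2065 between the agents, the members called 3 under INY-05-040 and 3 between the agents, and the list genes called 21, 36 and 11. Between the agents, 53 genes were called in the main fit, 116 with robust estimation, 141 by DESeq2 and 23 in the fit to the 4 libraries compared. Leaving out 1 library gave 37 to 546 genes called under GDC0068 (712 with all libraries), 931 to 3217 under INY-05-040 (3039) and 5 to 63 between the agents. For the members these ranges were 0 to 1 under INY-05-040 and 0 in the other comparisons, and for the list genes 0 to 2, 5 to 17 and 0. A fit that leaves an arm with 1 library assumes that it varies like the others. No result changed side under another scaling or filter on low counts for the members. Counting error was highest for ARRDC4, at up to 8.30% of a library's count.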
